A study of Mus musculus with 6 samples.

Results

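Insulin and insulin-like growth factor (IGF) signaling genes were examined in control fetal testes and in testes with a conditional deletion of a glycogen-promoting factor. For this, 10 genes were read from a bulk RNA-seq count table of 24470 genes. The members, chosen by symbol, were the ligand gene Igf1, the receptor genes Insr, Igf1r and Insrr, the receptor substrate genes Irs1 and Irs2, and the binding protein genes Igfbp2, Igfbp3, Igfbp4 and Igfbp5. The samples were whole E12.5 mouse testes (early in male development, soon after sex determination), 3 control (Ppp1r3c f/f) and 3 Ppp1r3c cKO (Sf1-Cre Ppp1r3c f/f). All 6 thus carried floxed alleles of Ppp1r3c, whose product targets protein phosphatase 1 to glycogen, and only the cKO (conditional knockout) samples carried the Cre. That Cre is driven by Nr5a1 (Sf1) sequences, active in somatic cells of the gonad, so germ cells and other lineages without Nr5a1 keep the gene. The animals were on a C57BL/6 background, and each sample pooled 2 gonad pairs. The labels do not say whether pools came from separate litters, so p-values measure the spread between pools.

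Insulin, IGF1 and IGF2 act through the related tyrosine kinase receptors INSR and IGF1R, and a further relative, INSRR, responds to alkaline conditions rather than to these hormones. Activated receptors phosphorylate the docking proteins IRS1 and IRS2, which recruit PI3 kinase and lead to AKT, mTOR and the FOXO transcription factors. IGF binding proteins hold IGFs outside the cell, where they can either limit or prolong signaling. In mice, combined loss of the insulin receptor family disturbs testis determination and leads to XY sex reversal, and the same receptors promote Sertoli cell proliferation.

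The sequences upstream of both docking protein genes are shown because Irs2 gave the lowest p of the members. They are the 250 bases before the RefSeq transcription start (build GRCm38.p6), 5′ to 3′ on the gene's own strand, with capitals marking the E box CACGTG, a site of basic helix-loop-helix factors, and TGTTTTG, a form of the insulin response sequence.
Irs1, minus strand, chr1:82291440-82291689: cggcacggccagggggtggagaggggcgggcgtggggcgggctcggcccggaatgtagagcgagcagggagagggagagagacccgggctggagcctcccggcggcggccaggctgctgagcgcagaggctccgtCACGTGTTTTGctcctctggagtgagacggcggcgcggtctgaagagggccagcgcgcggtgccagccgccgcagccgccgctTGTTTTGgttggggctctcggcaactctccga
Irs2, minus strand, chr8:11008930-11009179: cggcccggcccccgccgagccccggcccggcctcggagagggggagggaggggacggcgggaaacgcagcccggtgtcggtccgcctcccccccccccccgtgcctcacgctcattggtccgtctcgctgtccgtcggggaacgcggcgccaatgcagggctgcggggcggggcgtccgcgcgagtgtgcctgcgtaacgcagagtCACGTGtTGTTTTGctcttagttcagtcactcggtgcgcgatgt
In Irs1 the E box, 115 to 110 bases before the start, overlaps the TGTTTTG element that spans 111 to 105, and a second copy lies at 32 to 26. In Irs2 the E box lies at 44 to 39 and the TGTTTTG follows it at 37 to 31. The pairing was singled out after these sequences were seen, and both strands were searched. Of 32851 upstream windows of this length, 6.02% held CACGTG, 5.56% held TGTTTTG and 0.0457% held both with starts within 20 bases. The table matched 8 of the 10 members, in 9 windows, of which these 2 held the close pair. Igfbp2 also had an E box, and no member window held GTAAACA, a FOXO motif, or CAAGGTCA, an NR5A1 motif (3.17% and 1.33% of all windows). Only the exact letters named here were searched, so FOXO or NR5A1 sites with other letters were not covered. TGTTTTG, present in Irs1 and Irs2, was counted apart from GTAAACA. Whether FOXO factors bind these TGTTTTG copies was not tested. The start used for Irs2 lies 499 bases upstream of the deposited gene model. Such matches are descriptions of letters and not of bound factors.

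Depth and sample identity were checked first. Libraries held 16139487 to 44145158 counts, lowest in control replicate 1, and the members took 0.246% to 0.293% of them. Ppp1r3c averaged 23.2 ± 1.19 CPM in control and 5.35 ± 0.624 CPM in cKO testes (SD, n = 3 each; CPM are counts scaled to library size by TMM, in units of 1e6 counts), and it fell by 76.9% in the edgeR fit (FDR 0.000126). One library stood apart: cKO replicate 3 held 12534 Xist counts, an RNA made from the inactive X of XX cells, against 6 to 41 in the others. In that library 4 Y-linked genes added up to 220 CPM (258 to 277 elsewhere), the sum of 6 pre-granulosa markers 268 CPM (82.8 to 100.2 elsewhere) and the sum of 6 fetal Leydig markers 197 CPM (290 to 484 elsewhere). All 10 Sertoli markers exceeded 1 CPM in every sample, with sums of 2137 to 2660 CPM in control and 2199 to 2726 CPM in cKO testes. Germ cell markers summed to 487 to 792 CPM in control and 246 to 512 CPM in cKO testes. Whether the pool of cKO replicate 3 held XX gonad tissue was not tested. Values given for cKO testes include that library unless stated otherwise. Each member's result below is therefore also given without cKO replicate 3.

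None of the members was called, and their largest log2 fold changes were -0.43 for Insrr and 0.30 for Igf1. With edgeR's quasi-likelihood test and Benjamini-Hochberg adjustment over 15577 tested genes (called: FDR below 0.05), 0 of the 10 members passed, where the background of called genes was 0.0385%. DESeq2, the tool named in the study's methods, and limma-voom also called 0 members (backgrounds 0.779% and 0.0449%). At an unadjusted p under 0.05 edgeR had 2 members, Irs2 and Igf1, both with higher values in cKO testes (background 11.4% in either direction, 5.56% for higher values). DESeq2 had 3, these 2 and Igfbp4 (background 10.3%). The log2 fold change was above 0 for 8 of 10 members, against 49.1% of all genes, with a median of 0.13 against -0.0034. The median of its absolute size was 0.17 for the members and 0.099 for all genes. Without cKO replicate 3 this median of absolute size was 0.11 for the members and 0.10 for all genes. The median log2 fold change was then 0.094 for the members against -0.0043. In bulk tissue, fewer cells of a type and less RNA per cell cannot be told apart.

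All 10 members passed the filter on low counts. The groups did not overlap for 3 of them, Irs2 and Igf1 with every cKO sample above every control sample (8.42% of all genes) and Insrr with every cKO sample below (7.17%). Over both directions the background was 15.6%. Without cKO replicate 3, edgeR called 0 members (background 0.0189%) and had 1 at an unadjusted p under 0.05, Irs2 (background 7.83%). The log2 fold change was then above 0 for 7 of 10 members (48.7% of all genes), and 3 did not overlap (22.8%). With so few genes, these shares are descriptions of the members.

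**Figure D1:**
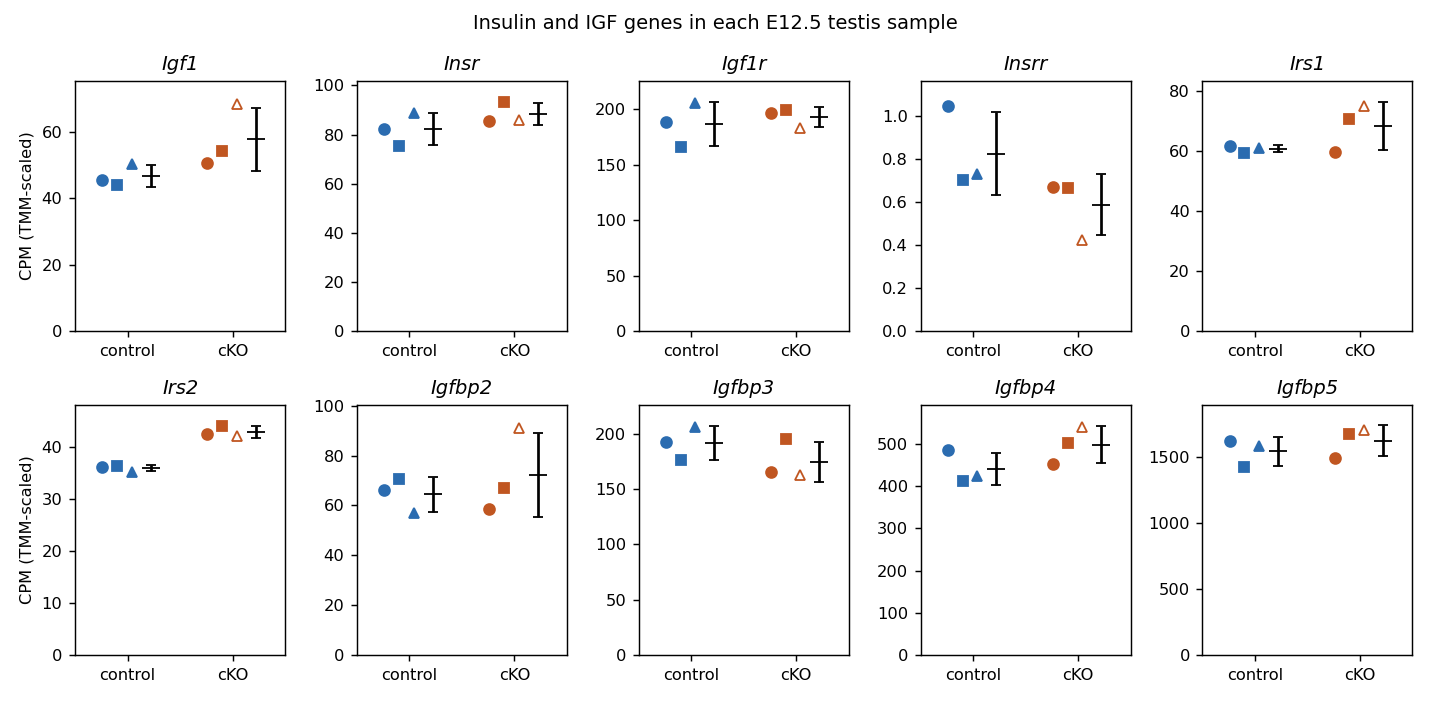
Each panel plots TMM-scaled CPM (y axis, from 0) of 1 gene in the control (blue) and cKO (orange) samples, with replicates 1 to 3 as circles, squares and triangles, cKO replicate 3 as an open triangle, and the mean ± SD (n = 3) in black. Irs2 sits between 42.1 and 44.2 CPM in cKO and between 35.3 and 36.4 CPM in control samples, while the highest values of Igf1 and Igfbp2 come from replicate 3.

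Irs2 was the member with the clearest separation. The gene (Entrez 384783; mm10 chromosome 8, 10986961 to 11008430, minus strand) encodes a docking protein of both receptors. Its level was 36.3, 36.4 and 35.3 CPM in control replicates 1 to 3, and 42.6, 44.2 and 42.1 CPM in cKO replicates 1 to 3. Values within each group were close together, and the groups did not overlap. Its pooled within-group SD was 0.031 on the log2 CPM scale, smaller than for all but 2.08% of tested genes, against a median of 0.12. With 3 samples per group this SD is itself imprecise. It was not compared with the counting noise at 590 to 1710 counts a library. cKO against control gave a log2 fold change of 0.26 (SE 0.0593, 95% interval 0.12 to 0.39), a ratio of 1.19, with rank 58 of 15577 by p. It did not pass the adjustment over all genes (edgeR FDR 0.377). The FDR over the other settings ranged from 0.0993, with DESeq2, to 0.777. The exact two-sided permutation p on log2 CPM was 0.1, the smallest possible with 3 against 3 samples. For Irs2 the library that stood apart, cKO replicate 3, was at 0.970 times the mean of the other cKO samples. Without it the estimate was 0.27 (SE 0.0750, edgeR FDR 0.633).

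Irs1, the other docking protein gene (Entrez 16367; chromosome 1, 82233105 to 82291439, minus strand), had 61.9, 59.5 and 61.2 CPM in control samples. In cKO samples it had 59.6, 70.7 and 75.0 CPM. The groups overlapped, since cKO replicate 1 lay among the controls. For cKO over control, edgeR estimated a log2 fold change of 0.17 (SE 0.0853, 95% interval -0.022 to 0.36, edgeR FDR 0.476), and 0.10 without cKO replicate 3 (edgeR FDR 0.791). It was 0.26 without cKO replicate 1, the lowest cKO sample (edgeR FDR 0.192, in a range of 0.192 to 0.791 over the alternatives).

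Igf1, the ligand gene of the set (Entrez 16000; chromosome 10, 87858265 to 87937047, plus strand), encodes a growth factor that acts mainly through IGF1R. Control samples had 45.6, 44.0 and 50.4 CPM, and cKO samples had 50.5, 54.3 and 68.4 CPM. The highest control and the lowest cKO value nearly touched, and cKO replicate 3 was at 1.31 times the mean of the other cKO samples. On the log2 scale the fitted difference came to 0.30 (SE 0.111, 95% interval 0.055 to 0.56, edgeR FDR 0.384). By exact permutation, two-sided p was 0.1. Without cKO replicate 3 it was 0.17 (SE 0.0846, edgeR FDR 0.681), and the interval, -0.025 to 0.36, then included 0. Xist and the pre-granulosa markers were high in the same library. Their part in the Igf1 value was not tested.

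The receptor genes Insr and Igf1r had overlapping groups and narrow intervals. Insr (Entrez 16337; chromosome 8, 3150922 to 3279617, minus strand), the insulin receptor, had 82.3, 75.5 and 88.7 CPM in control samples and 85.7, 93.4 and 85.9 CPM in cKO samples. edgeR put the log2 fold change at 0.10 (SE 0.0728, edgeR FDR 0.603), and its 95% interval of -0.060 to 0.27 corresponds to ratios of 0.959 to 1.20. Igf1r (Entrez 16001; chromosome 7, 67952257 to 68233667, plus strand), the IGF1 receptor, had 188, 166 and 206 CPM in control samples and 197, 200 and 183 CPM in cKO samples. The control values spanned a wider range than the cKO values. cKO against control gave a log2 fold change of 0.050 (edgeR SE 0.0786, FDR 0.842), with ratios of 0.916 to 1.17 in the interval. Without control replicate 2, the lowest sample, its sign turned to -0.039. Without cKO replicate 3 the estimates were 0.12 for Insr and 0.088 for Igf1r (edgeR FDR 0.737 and 0.834). Over all 6 single left-out samples Insr ranged from 0.036, without control replicate 2, to 0.16, without control replicate 3.

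Insrr (Entrez 23920; chromosome 3, 87796951 to 87816101, plus strand), the insulin receptor-related receptor gene, was near the limit of detection. Control libraries held 17, 31 and 30 counts, and cKO libraries held 27, 24 and 14 counts. These correspond to 1.05, 0.702 and 0.732 CPM in control and 0.673, 0.667 and 0.424 CPM in cKO samples. Every cKO value lay below every control value, but the nearest, 0.702 and 0.673 CPM, rested on 31 and 27 counts. For cKO over control, edgeR estimated a log2 fold change of -0.43 (SE 0.323, 95% interval -1.16 to 0.30, edgeR FDR 0.628), and -0.25 without cKO replicate 3 (edgeR FDR 0.896). No difference was detectable at this depth.

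The balance of both receptors was compared within libraries. The log2 ratio of Insr to Igf1r per exon length was -0.907, -0.848 and -0.928 in control samples and -0.914, -0.810 and -0.805 in cKO samples. The means, -0.89 ± 0.042 and -0.84 ± 0.062 (SD, n = 3 each), differed by 0.051 (exact two-sided permutation p 0.3). Insr thus stood at 0.526 to 0.573 times the level of Igf1r in every library, with overlapping groups.

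Among the binding protein genes, Igfbp5 was highest and Igfbp4 next per exon length in all 6 samples, while the step from Igfbp3 to Igfbp2 depended on the gene lengths used (given below with the levels per length). Igfbp5 (Entrez 16011; chromosome 1, 72858065 to 72874865, minus strand), which encodes a secreted protein that also binds extracellular matrix, had 1621, 1420 and 1585 CPM in control samples. In cKO samples it had 1492, 1672 and 1706 CPM. The groups overlapped, and edgeR's log2 fold change was 0.075 (SE 0.0732, 95% interval -0.090 to 0.24, edgeR FDR 0.716). With cKO replicate 3 left out it was 0.038 (edgeR FDR 0.936), and leaving out other single samples gave 0.0094, without control replicate 2, to 0.13, without cKO replicate 1.

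Igfbp4 (Entrez 16010; chromosome 11, 99041260 to 99052646, plus strand) encodes a binding protein that the protease PAPP-A cleaves to release IGFs. It had 485, 413 and 424 CPM in control samples and 454, 503 and 541 CPM in cKO samples. Control replicate 1 lay above cKO replicate 1, so the groups overlapped. On the log2 scale the fitted difference came to 0.18 (SE 0.0814, 95% interval -0.0039 to 0.36, edgeR FDR 0.446), and 0.12 without cKO replicate 3 (edgeR FDR 0.752). With all 6 samples its unadjusted p was 0.0541 in edgeR, 0.0301 in DESeq2 (FDR 0.369) and 0.0492 in limma-voom (FDR 0.398).

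Igfbp3 (Entrez 16009; chromosome 11, 7206086 to 7213923, minus strand), which encodes the main IGF carrier in blood after birth, was the only binding protein gene of the set with a negative log2 fold change in all 6 samples together. It had 193, 176 and 207 CPM in control samples and 166, 196 and 163 CPM in cKO samples. cKO replicate 2 lay within the control range. edgeR put the log2 fold change at -0.13 (SE 0.0835, 95% interval -0.32 to 0.053, edgeR FDR 0.560), and -0.087 without cKO replicate 3 (edgeR FDR 0.844).

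Igfbp2 (Entrez 16008; chromosome 1, 72824480 to 72852474, plus strand) faces Igfbp5 across a gap of 5.59 kb, and the 2 genes are on opposite strands, which the counting kept apart. It encodes a binding protein common in fetal tissue. It had 66.1, 70.5 and 56.8 CPM in control samples and 58.6, 66.9 and 91.2 CPM in cKO samples. cKO replicate 3 stood alone at 1.45 times the mean of the other cKO samples, the largest such ratio among the members. cKO against control gave a log2 fold change of 0.16 (SE 0.150, 95% interval -0.17 to 0.50, edgeR FDR 0.700). Without cKO replicate 3 the sign turned, to -0.039 (95% interval -0.27 to 0.19). The pre-granulosa markers were highest in the same library, and their part in the Igfbp2 value was not tested.

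**Figure D2:**
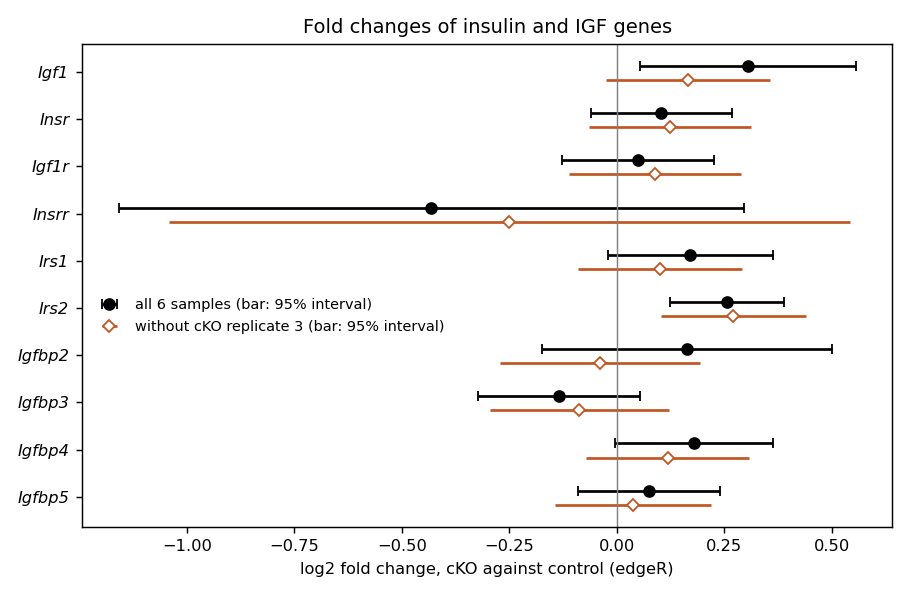
Points give edgeR log2 fold changes (x axis) of cKO against control testes for each gene (y axis), with all 6 samples in black and without cKO replicate 3 in orange, and bars give unadjusted 95% intervals. Only Irs2 has an interval above 0 in both fits, 0.12 to 0.39 and 0.10 to 0.44, and no gene had an edgeR FDR below 0.05.

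The composition of the binding protein transcripts was then described, a summary added after the values were seen and given with no test. Of the summed level per exon length of the 4 genes, Igfbp5 took 51.8% ± 1.06 in control and 51.8% ± 0.554 in cKO testes (SD, n = 3 each). Igfbp4 took 24.3%, 23.2% and 22.2% in control samples and 24.9%, 24.5% and 25.4% in cKO samples, so every cKO share was higher. Igfbp3 took 15.3%, 15.6% and 17.1% in control samples and 14.4%, 15.1% and 12.1% in cKO samples, so every cKO share was lower. The nearest control and cKO shares were 24.3% and 24.5% for Igfbp4 and 15.3% and 15.1% for Igfbp3. In CPM the groups of both genes overlapped, and the lowest Igfbp3 share was that of cKO replicate 3. No background over other genes was computed for such shares. Igfbp2 took 7.80% to 10.4% in control and 8.44% to 11.3% in cKO samples, highest in cKO replicate 3. With the GENCODE basic lengths every cKO share of Igfbp4 was again higher and every cKO share of Igfbp3 lower. Shares of 1 sum depend on each other. The sum itself was 495 ± 28.2 CPM per kb in control and 522 ± 41.6 CPM per kb in cKO testes (SD, n = 3 each).

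Levels of different genes were compared per length, as CPM per kb of exon, together with Igf2 and the IGF2 clearance receptor gene Igf2r. Averaged over 6 samples, the order was Igfbp5 (264), Igfbp4 (123), Igfbp3 (75.8), Igfbp2 (46.8), Igf1r (16.6), Insr (9.11), Irs1 (7.07), Irs2 (6.25), Igf1 (6.05) and Insrr (0.139 CPM per kb). The first 5 steps of this order, down to Insr, held in 6 of 6 samples with no overlap of ranges, as did the last step to Insrr. The exception came with lengths from the GENCODE basic set, an alternative added after seeing the data: Igfbp3 was then above Igfbp2 in 5 of 6 samples, the ranges overlapped, and cKO replicate 3 had 62.5 for Igfbp2 and 52.1 CPM per kb for Igfbp3. Insr was above Irs1 in 6 of 6 samples, and within each group their ranges did not overlap. Irs1 was above Irs2 in 5 of 6 samples and above Igf1 in 6 of 6, with separate ranges in control and overlapping ranges in cKO samples. Irs2 was above Igf1 in 4 of 6 samples, with overlap in both groups, and in 5 of 6 with the basic lengths, where the control ranges were separate. Igfbp5 was above 98.9% of the 14803 tested genes with a length, Igf1r above 67.1% and Igf1 above 41.3%. Insrr was above 2.77%.

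**Figure D3:**
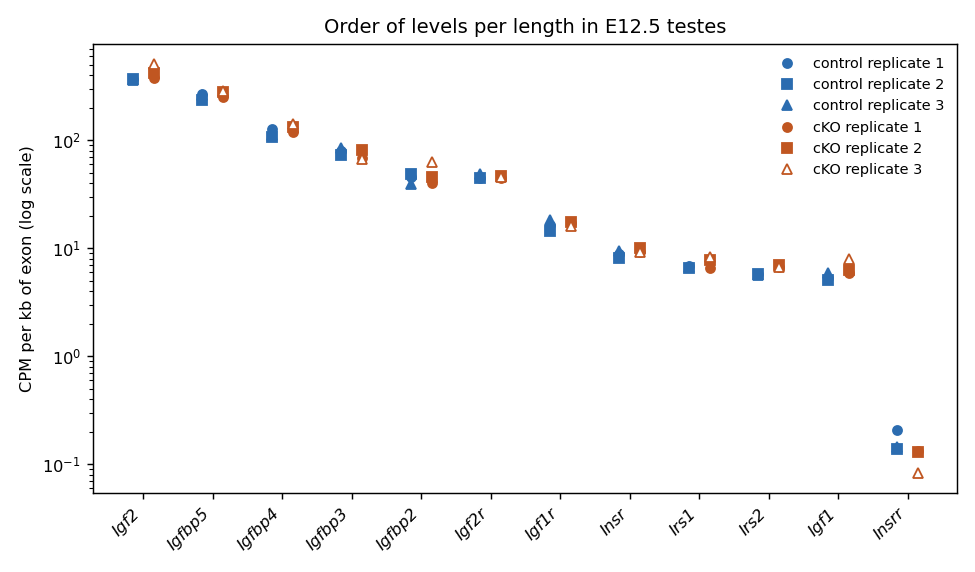
The plot gives CPM per kb of exon (log y axis) for the 10 genes, Igf2 and Igf2r (x axis), with 1 point per sample, control in blue and cKO in orange, and cKO replicate 3 as open triangles. Binding protein genes lie above Igf1r, Insr and Insrr, Igf2r lies among the Igfbp2 values, and Insr, Irs1, Irs2 and Igf1 form a group between 5.10 and 9.98 CPM per kb.

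The other ligand genes set the context. Igf2, a growth factor gene of fetal tissues that is imprinted, had 1950, 1948 and 1876 CPM in control samples and 1981, 2194 and 2637 CPM in cKO samples. The cKO samples all lay above the controls, and edgeR's log2 difference stood at 0.24 (SE 0.0943, FDR 0.404), or 0.12 without cKO replicate 3 (edgeR FDR 0.696). Per length, the log2 ratio of Igf1 to Igf2 was -6.09 ± 0.13 in control and -6.02 ± 0.035 in cKO testes (SD, n = 3 each), a difference of 0.068 (exact two-sided permutation p 0.4). Igf1 therefore stood at 0.0137 to 0.0163 times the level of Igf2 in each library. These ratios depend on the gene lengths used. With the GENCODE basic lengths the mean of Igf1 over samples was 5.27 in place of 6.05 CPM per kb. That of Igf2 stayed at 400 CPM per kb, so the ratios were then lower. Ins1 had 0 counts in every library, where 3 counts would be 0.0679 to 0.185 CPM. Ins2 had 0 to 8 counts. Igf2r, which clears IGF2, had 408 ± 17.8 CPM in control and 409 ± 8.58 CPM in cKO testes (SD, n = 3 each), and edgeR's log2 difference stood at 0.0040 (SE 0.0525, FDR 0.985) with a 95% interval of ratios from 0.924 to 1.09. Its sign changed in thinned libraries and when single samples were left out.

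Other genes of the pathway were read from lists of 63 genes, of which 59 were tested. edgeR called 0 of them in either direction, and 11 had an unadjusted p under 0.05, 9 with higher and 2 with lower values in cKO testes (background 11.4%, with 5.56% higher and 5.80% lower). The median log2 fold change was 0.0040, with 31 above 0 and 28 below. Without cKO replicate 3, 4 of 59 had an unadjusted p under 0.05 (background 7.83%), 2 with higher and 2 with lower values in cKO testes. Of all 15866 genes tested in that fit, 562 were higher and 680 lower at this threshold. The 2 higher genes were Ptprf and, chosen after its values were seen, Igfbp6. The 2 lower genes were Igfbpl1 and Foxo1. Besides Ins1 and Ins2, the binding protein genes Igfbp1 and Igfals had too few counts to be tested.

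Igfbpl1, a gene for an IGFBP-like secreted protein, had the lowest p of the pathway lists. It had 5.05, 7.11 and 6.95 CPM in control samples and 3.57, 2.47 and 3.69 CPM in cKO samples. The groups did not overlap, and cKO replicate 2 was lowest. For cKO over control, edgeR estimated a log2 fold change of -0.99 (SE 0.203, 95% interval -1.45 to -0.53), and DESeq2 called it (FDR 0.00501) while edgeR did not (FDR 0.377). Over the settings its FDR ranged from 0.00501 to 0.777. With cKO replicate 3 left out it was -1.09 (edgeR FDR 0.633). The germ cell marker sum was also lowest in cKO replicate 2 (246 CPM), where Igfbpl1 was lowest, and its part in this value was not tested. The related gene Igfbp6, chosen after its values were seen, had 2.89, 2.67 and 2.20 CPM in control samples and 7.11, 3.06 and 3.99 CPM in cKO samples (log2 fold change 0.89, SE 0.300, edgeR FDR 0.379).

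Downstream of the receptors, 0 genes were called by edgeR or DESeq2, and the log2 fold changes ranged from -0.43 to 0.21 over 11 PI3 kinase and AKT genes, from -0.017 to 0.39 over 6 receptor inhibitors and from -0.059 to 0.15 over 7 adaptors. The gene of lowest p among PI3 kinase and AKT genes was Pik3r1, a regulatory subunit of PI3 kinase, with 82.4 ± 2.26 CPM in control and 95.4 ± 10.1 CPM in cKO testes (SD, n = 3 each; log2 fold change 0.21, SE 0.0776, edgeR FDR 0.386). Its highest value was in cKO replicate 3, and the log2 fold change without it was 0.12. Among receptor inhibitors it was Ptprf, a receptor-type phosphatase, with 448 ± 15.1 and 513 ± 32.6 CPM (SD, n = 3 each; 0.20, SE 0.0606, edgeR FDR 0.377). Among adaptors it was the docking protein gene Gab1, at 0.15 (SE 0.0523, edgeR FDR 0.380).

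Foxo1, a transcription factor that AKT keeps out of the nucleus, had the lowest p of the 4 FOXO genes (range of log2 fold changes -0.22 to 0.27). It had 77.8, 84.8 and 89.3 CPM in control samples and 77.7, 67.8 and 70.8 CPM in cKO samples. cKO replicate 1 and control replicate 1 were nearly equal. On the log2 scale the fitted difference came to -0.22 (SE 0.0748, edgeR FDR 0.377), and -0.21 without cKO replicate 3 (edgeR FDR 0.633).

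In the remaining lists 0 genes were called. Pappa2, a protease of IGF binding proteins, came to 0.37 in log2 fold change (SE 0.151, edgeR FDR 0.411), and Igf2bp2, an mRNA-binding protein gene, had 0.14 (SE 0.0525, edgeR FDR 0.384). Of 8 mTOR genes, 7 had a log2 fold change below 0 and 1 above 0 (49.1% of all genes were above 0), with a range of -0.13 to 0.028. Their median absolute log2 fold change was 0.051, against 0.099 for all genes. In edgeR 0 of these 8 had an unadjusted p under 0.05. The lowest p was that of Rheb, an activator of mTOR (-0.13, SE 0.0594, edgeR FDR 0.450). The 10 RAS and MAPK genes ranged from -0.045 to 0.10, with the lowest p for Nras (0.095, SE 0.0501, edgeR FDR 0.495).

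**Figure D4:**
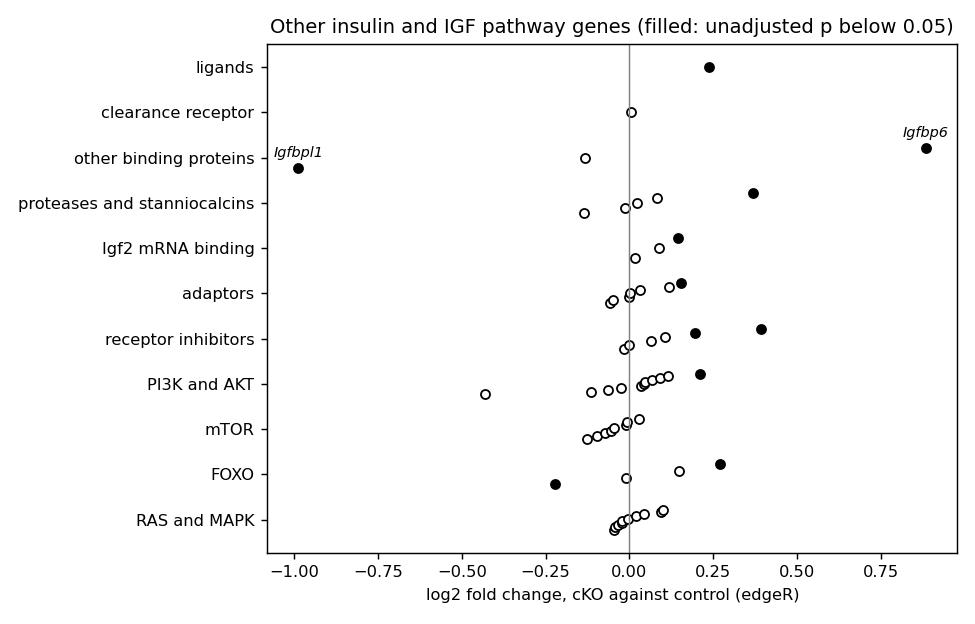
Each point is 1 of the 59 tested genes outside the members, placed by its edgeR log2 fold change of cKO against control (x axis) and its list (y axis), and filled points have an unadjusted p under 0.05. The median is 0.0040, and Igfbpl1 (-0.99) and Igfbp6 (0.89) lie farthest from it.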

How the data were processed

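RNA of 6 samples was sequenced from stranded mRNA libraries. Per the study's methods, the authors aligned read pairs to mm10 with STAR (version 2.5 in the submitters' processing notes) and counted them per RefSeq gene with featureCounts (Subread 1.5.0-p1), keeping strand. The deposited values were raw counts, without normalization. Groups and replicate numbers came from sample titles. No column of per-sample values was unused.

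Counts were tested with edgeR 4.0.16 in R 4.3.3 (filterByExpr, minimum count 10; TMM; quasi-likelihood test between both groups, no covariate). SE came from the F statistic, and intervals are 95% and unadjusted. Log2 CPM used a prior count of 2. Alternatives were DESeq2 1.42.0 (all genes), limma-voom 3.58.1, RLE factors, other filters, a replicate block, libraries thinned to the smallest total (seed 1) and leaving out each sample. The tests were tested on simulated data with 200 changed genes. The planted changes were larger than any member's estimate, so recovery of changes as small as those of the members was not tested. Exon lengths were unions over GENCODE M21 transcripts (GRCm38) with a RefSeq match, which may differ from the authors' models. Upstream sequences were RefSeq's (GRCm38.p6).

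Members and lists were chosen with earlier results of these data known. Named were all members, Igf2, Igf2r, the gene of lowest p in each pathway list, called genes and genes at 0.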

Additional observations from a re-analysis of the deposited data

How the results depend on the processing

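None of the members was called in any of the 13 alternatives that tested it (12 for Insrr, which the stricter filter removed), and 127 of 129 alternative values of their log2 fold changes kept their sign. Of the 13 alternatives, 7 refitted all 6 samples, so their signs were not independent of the main fit. The other 6 left out single samples, and both exceptions came from these. The exceptions were Igf1r without control replicate 2 (-0.039, in a range of -0.039 to 0.12 over single samples) and Igfbp2 without cKO replicate 3 (-0.039, in a range of -0.039 to 0.29). Leaving out single samples moved Irs2 between 0.24 and 0.27, Igf1 between 0.17 and 0.39, Irs1 between 0.10 and 0.26, Insr between 0.036 and 0.16, Insrr between -0.55 and -0.25, Igfbp4 between 0.12 and 0.25, Igfbp5 between 0.0094 and 0.13, and Igfbp3 between -0.22 and -0.081. Igf2r, near 0, was -0.0055 in thinned libraries and ranged from -0.029 to 0.035 without single samples (below 0 in 3 of 6 such fits).

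Of pathway genes, DESeq2 called 1, Igfbpl1 (-0.99). Over all genes edgeR called 6, DESeq2 111, and edgeR 2 to 8 without single samples. Leaving out control replicate 1 or 3 left 2 calls each, and leaving out cKO replicate 3 left 3. The causes were not tested. The ratio differences ranged from 0.032 to 0.087 for Insr to Igf1r and from 0.019 to 0.14 for Igf1 to Igf2 without single samples. With lengths from the GENCODE basic set, an alternative added after seeing the data, the order of the 10 means over samples was the same, but Igfbp3 was above Igfbp2 in 5 of 6 samples in place of 6.

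Titles share replicate numbers, but deviations of same-numbered samples correlated at -0.20, -0.27 and -0.13, so the numbers were not taken as pairs. With the replicate block edgeR called 3 genes and no member. Insrr, at 14 to 31 counts a library, had a low depth that limits its value.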
